A study of Mus musculus with 6 samples.

Results

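The 10 genes described here mark the resident fibroblasts of the heart and were followed in infarcted mouse hearts with and without a long noncoding RNA. They are Tcf21, Pdgfra, Dpep1, Dcn, Lum, Gsn, Pi16, Dpt, Scara5 and Ly6a. They were chosen by name, as the rows of the deposited expression table whose Ensembl gene identifier belongs to these symbols, and each matched 1 of its 52550 rows. Whole hearts came from C57BL/6 mice, 3 wild type (WT) and 3 with the genotype lncRNA-DRR-/- (KO). All 6 mice had the left anterior descending coronary artery tied off permanently at 8 weeks of age, and they were 10 weeks old when sampled, 2 weeks later by these ages. Every heart was infarcted, so the data compare the genotypes after injury and cannot say what infarction itself did to these genes. How the deletion was made, and the sex of the mice, are not given in the labels.

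Resident cardiac fibroblasts lie between the muscle cells and keep up the collagen network of the heart. They descend largely from the epicardium, for which the transcription factor TCF21 is needed, and they carry the receptor PDGFRα on their surface. After an infarct they divide, take on a contractile, matrix-producing state in which Postn and Acta2 are high, and later settle into the scar. Genes such as Tcf21 and Pdgfra are commonly read as the resident state, while the proteoglycan genes Dcn and Lum are also expressed in scar fibroblasts.

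Values were FPKM, fragment counts scaled to transcript length and library size, so levels of different genes can be compared. By estimate, the libraries held 5190000 to 9400000 fragments. Over all 14656 genes tested by limma, 55 were called at an adjusted p under 0.05, which is 0.375%. No row was matched to the deleted RNA, which therefore gives no check of the genotypes. Of the KO hearts, replicate 3 stood apart in sex-linked genes. Its Xist was at 25.6 FPKM, against at most 0.0742 FPKM in the other 5 libraries. Its Ddx3y was at 0.028 FPKM, against at least 13.0 FPKM in those 5. By these genes KO replicate 3 came from a female mouse and every remaining heart from a male one. Sex was thus mixed within KO but not within WT, and no fit held it as a term. Each limma test below was also run without KO replicate 3. All 10 resident fibroblast genes passed the filter on low values, and each was at 4.06 FPKM or more in every library.

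No resident fibroblast gene passed the test between the genotypes. In FPKM as deposited the 3 WT and 3 KO libraries overlapped for all 10, and after division by the library scaling factors of the fit they were separated for Tcf21 only. The call rate over all genes was 0.375%, so 0 calls among 10 genes is no departure from the background. Groups without overlap were found in FPKM for 12.8% of all tested genes and for 0 of these 10, and after scaling for 14.0% of all tested genes and for 1 of these 10. At an unadjusted limma p under 0.05 stood 1 of the 10, Tcf21, against 8.48% of all genes. The estimates leaned upward: 8 of the 10 were higher in KO and 2 lower, with a median log2 difference of 0.22, while 49.3% of all tested genes were higher and their median was -0.004. The 10 genes come from the same 6 hearts and are not independent of each other. In RNA from whole hearts, fewer cells of a type and less RNA per cell cannot be told apart.

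By mean level over the 6 libraries the genes spanned 2 orders of magnitude. Gsn (509 FPKM) and Dcn (450 FPKM) were the most abundant and their libraries overlapped. Lum followed at 239 FPKM and Dpt at 126 FPKM, and the lowest Lum library (158 FPKM) lay just under the highest Dpt library (162 FPKM); after scaling the lowest Lum library (162.4) was above the highest Dpt library (150.7). Ly6a (53.1 FPKM), Pi16 (47.8 FPKM) and Dpep1 (34.8 FPKM) formed a middle group, in which each overlapped the next. Pdgfra (11.1 FPKM), Tcf21 (8.86 FPKM) and Scara5 (5.18 FPKM) were lowest. Pdgfra and Tcf21 overlapped, whereas every Tcf21 library (at least 6.96 FPKM) lay above every Scara5 library (at most 6.31 FPKM).

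**Figure D1:**
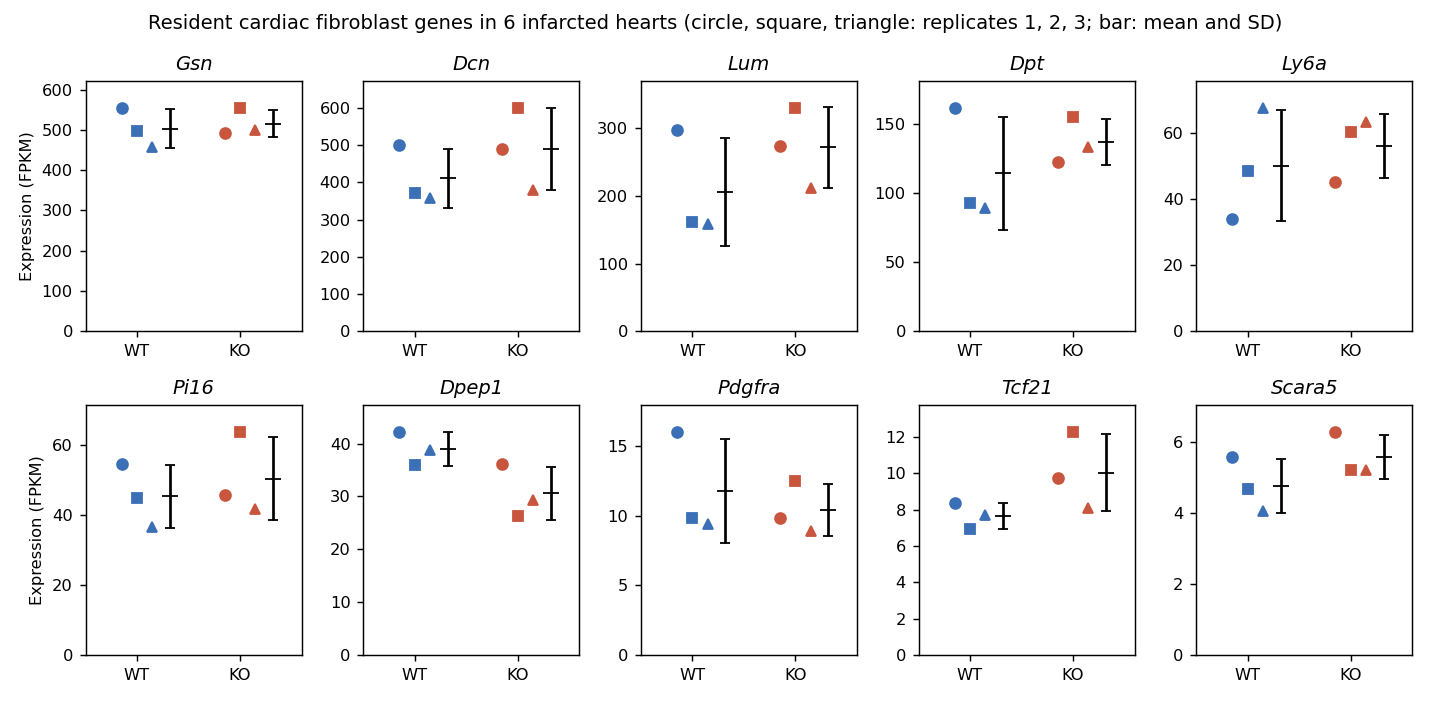
Expression in FPKM of the 10 genes in each library, ordered by mean level, with WT in blue and KO in red. Circles, squares and triangles are replicates 1, 2 and 3, and the bar gives the mean and SD of 3 libraries. The genotypes overlap in every panel in these unscaled values; after scaling, Tcf21 does not overlap. WT replicate 1 lies above the other WT libraries for 9 genes and below them for Ly6a, and after scaling it is the highest of the WT libraries for 7.

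Pdgfra and Dpep1 are the genes on which the later comparison within hearts turns. Tcf21 is set against both there, and Dpt is the matrix gene shown beside them. Their upstream sequence is given here to show the control regions of genes whose estimates pointed in different directions. Each is the stretch from 250 to 51 bases before the RefSeq start site (GRCm38.p6), written 5′ to 3′ on the gene's strand. The positions are chr10:22820194-22820393 for Tcf21 (minus strand), chr5:75152001-75152200 for Pdgfra, chr8:123185985-123186184 for Dpep1 and chr1:164796413-164796612 for Dpt (plus strand for these 3). Capitals mark the motif CAGCTG, an E-box of the kind that basic helix-loop-helix factors such as TCF21 bind.
Tcf21: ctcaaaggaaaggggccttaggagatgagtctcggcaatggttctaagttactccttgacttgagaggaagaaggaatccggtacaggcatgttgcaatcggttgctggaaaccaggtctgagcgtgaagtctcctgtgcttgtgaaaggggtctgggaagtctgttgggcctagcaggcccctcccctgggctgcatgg
Pdgfra: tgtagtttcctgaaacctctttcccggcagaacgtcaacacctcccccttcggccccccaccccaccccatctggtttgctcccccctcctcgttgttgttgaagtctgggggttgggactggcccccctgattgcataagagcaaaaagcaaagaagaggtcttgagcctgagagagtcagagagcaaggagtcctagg
Dpep1: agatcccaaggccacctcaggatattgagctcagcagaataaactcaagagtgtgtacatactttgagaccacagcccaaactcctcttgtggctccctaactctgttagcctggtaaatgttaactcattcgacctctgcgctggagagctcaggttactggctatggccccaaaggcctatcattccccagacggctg
Dpt: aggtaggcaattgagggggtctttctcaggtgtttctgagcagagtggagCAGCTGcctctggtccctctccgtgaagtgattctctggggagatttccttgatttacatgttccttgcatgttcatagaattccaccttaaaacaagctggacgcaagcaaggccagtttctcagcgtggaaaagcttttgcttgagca

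Of the 10 genes, 6 matched the RefSeq promoter table: these 4, Pi16 and Gsn, which has 3 start sites there. Dcn, Lum, Scara5 and Ly6a had no entry. In all, 4 motifs were searched on both strands, and the sequences printed hold no overlapping matches. CAGCTG occurred in 10.3% of the 32851 windows of the same 200 bases in the table, TATAAA (the core promoter box) in 9.1%, GGGCGG (GC box) in 24.6% and TGANTCA (AP-1) in 5.6%. In the sequences printed, Dpt held CAGCTG beginning 200 bases before its start. The windows of Tcf21, Pdgfra and Dpep1 held none of the 4 motifs, and of the other windows a Gsn start site held CAGCTG and GGGCGG. Each window stops 51 bases before the start site, so a TATAAA nearer the start was not searched for in any gene. Such a match is a run of letters and does not show that a factor binds.

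Tcf21 encodes the transcription factor that sets fibroblast fate in the epicardium (chromosome 10, 22817281 to 22820174, minus strand, GRCm38). It stood at 8.37, 6.96 and 7.69 FPKM in WT replicates 1 to 3 and at 9.72, 12.3 and 8.12 FPKM in KO replicates 1 to 3. KO replicates 1 and 2 were above every WT library, while KO replicate 3 lay below WT replicate 1. After scaling that order turned: KO replicate 3 (8.33) lay above WT replicates 1 (7.79) and 3 (8.11), and so all KO libraries lay above all WT libraries. The means were 7.67 ± 0.71 FPKM across WT hearts, and 10.1 ± 2.1 FPKM across KO hearts (SD, n = 3 each). On the scale of log2(FPKM / scaling factor + 0.5), on which all log2 differences here are given as KO minus WT, the difference was 0.36 ± 0.15 (SE), with a 95% interval from 0.02 to 0.71. This was the smallest p among the 10 genes (unadjusted p = 0.040), and over all genes it was not called (limma adjusted p = 0.55). The estimate ran from 0.26 without KO replicate 2 to 0.49 without KO replicate 3. Before adjustment, Tcf21 did not pass 0.05 without scaling, without the mean-variance trend or with replicate number as a block. With 1 library left out, it passed only without KO replicate 3.

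Pdgfra encodes the α receptor for platelet-derived growth factors, a tyrosine kinase that drives fibroblast survival and division (chromosome 5, 75152292 to 75198215, plus strand). Its values were 16.0, 9.81 and 9.38 FPKM across WT hearts, and 9.82, 12.5 and 8.88 FPKM across KO hearts, and the groups overlapped throughout. WT replicate 1 was high, and the other WT libraries lay inside the KO range. The means were 11.7 ± 3.7 and 10.4 ± 1.9 FPKM (SD, n = 3 each), and the log2 difference was -0.13 (95% interval -0.57 to 0.31, limma adjusted p = 0.90). Without WT replicate 1 the estimate turned to 0.06, and without KO replicate 3 it was -0.04. Its exons share 652 bases with 3 other annotated genes, of which Gm42802 and Gm42803 lie on the opposite strand, and no source here says whether strand was used in counting.

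The growth factor side of this pathway gave no call either. Of the 6 other PDGF genes (4 ligands, Pdgfrb and the receptor-like gene Pdgfrl), none was called in either direction, 4 were higher and 2 lower, and the median log2 difference was 0.10. Pdgfrb, the β receptor of pericytes and smooth muscle, was at 40.0 ± 6.0 FPKM across WT hearts, and 40.5 ± 11.6 FPKM across KO hearts. Pdgfa, a ligand gene whose product binds PDGFRα, was at 5.87 ± 0.65 and 5.81 ± 0.44 FPKM. Pdgfb was at 19.3 ± 1.9 and 16.4 ± 0.5 FPKM (SD, n = 3 each, limma adjusted p = 0.71), the smallest p of the group. Its genotypes did not overlap, as was found in FPKM for 12.8% of all tested genes.

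Dpep1 encodes a membrane dipeptidase that cleaves, among others, leukotriene D4 (chromosome 8, 123186242 to 123201812, plus strand). It stood at 42.3, 35.9 and 38.8 FPKM across WT hearts, and at 36.1, 26.3 and 29.3 FPKM across KO hearts. KO replicates 2 and 3 were below every WT library, and KO replicate 1 fell just above WT replicate 2. With means of 39.0 ± 3.2 and 30.6 ± 5.0 FPKM (SD, n = 3 each), the log2 difference was -0.34 ± 0.17 (SE; 95% interval -0.73 to 0.05) and was not called (limma adjusted p = 0.66). Without KO replicate 2 it was -0.20. The only tested relative, Dpep2, was at 1.27 ± 0.27 and 1.40 ± 0.44 FPKM.

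Scara5 encodes a class A scavenger receptor that takes up ferritin (chromosome 14, 65666403 to 65764826, plus strand). It was listed at 5.59, 4.68 and 4.06 FPKM across WT hearts, and at 6.31, 5.23 and 5.21 FPKM across KO hearts. KO replicate 1 was highest and WT replicates 2 and 3 were lowest, while WT replicate 1 lay above KO replicate 3 before scaling and below it after. The log2 difference was 0.22 ± 0.15 (SE; 95% interval -0.12 to 0.57, limma adjusted p = 0.77), and without KO replicate 1 it was 0.11. Of the 4 other class A scavenger receptor genes, 0 were called, with Scara3 at 6.5 ± 3.4 and 9.6 ± 4.6 FPKM and the macrophage gene Marco at 6.2 ± 4.6 and 2.2 ± 2.1 FPKM (SD, n = 3 each).

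Ly6a encodes SCA-1, a lipid-anchored surface protein of fibroblasts, endothelial cells and stem cells that interferons induce (chromosome 15, 74994877 to 74998031, minus strand). It was at 34.0, 48.5 and 67.5 FPKM across WT hearts, and at 45.1, 60.2 and 63.1 FPKM across KO hearts. The WT libraries spanned the whole range and held both the lowest and the highest value. The log2 difference of 0.22 had the widest interval of the 10 (-0.44 to 0.88, limma adjusted p = 0.89), and it ran from -0.08 without WT replicate 1 to 0.50 without WT replicate 3. Ly6a transcripts match Ly6i at 92.6% over 336 bases, and Ly6c1 and Ly6c2 at over 90% in stretches of 100 bases or more, so reads may have been split between them.

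The neighbours of Ly6a in its family gave no call either. Of 14 other Ly6-type genes 6 were tested, 3 higher and 3 lower. Ly6c1, expressed in endothelial cells, was at 76.3 ± 16.4 and 104.0 ± 26.0 FPKM, and Ly6e at 51.7 ± 12.7 and 62.6 ± 14.2 FPKM. Gpihbp1, which carries lipoprotein lipase across the capillary wall, had the smallest p, with 25.8 ± 0.8 and 36.6 ± 4.5 FPKM (SD, n = 3 each; log2 difference 0.50 ± 0.16, limma adjusted p = 0.39). Interferon response genes lay on the other side of 0 from Ly6a. All 12 had lower estimates in KO, with a median log2 difference of -0.25. Of the 12, 0 were called and 5 were at an unadjusted limma p under 0.05, against 8.48% of all tested genes. The 12 genes are not independent of each other. Isg15 was at 14.3 ± 2.1 and 7.88 ± 1.56 FPKM (SD, n = 3 each; limma adjusted p = 0.11). Whether Ly6a differs from those genes was not tested.

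Dcn, which encodes decorin, a proteoglycan that binds collagen fibrils and TGF-β, lies on chromosome 10 (97479609 to 97518143, plus strand). Its values were 500.3, 371.9 and 358.4 FPKM across WT hearts, and 488.1, 600.0 and 380.1 FPKM across KO hearts. WT replicate 1 ranked among the KO libraries, and the other WT libraries were the lowest of the 6. The log2 difference was 0.26 ± 0.19 (SE; 95% interval -0.19 to 0.71, limma adjusted p = 0.80), and it ran from 0.15 without KO replicate 2 to 0.41 without KO replicate 3.

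Lum encodes lumican, a keratan sulfate proteoglycan that spaces collagen fibrils, and starts 47.0 kb beyond the end of Dcn on the same strand (97565128 to 97572703). It was at 297.9, 161.4 and 158.3 FPKM across WT hearts, and at 273.8, 330.0 and 211.1 FPKM across KO hearts. Its libraries ranked in exactly the order of Dcn, before and after scaling, with KO replicate 2 highest and WT replicates 2 and 3 lowest. The log2 difference of 0.45 ± 0.25 (SE) was the largest of the 10 genes, and its interval alone reached past 1 (-0.13 to 1.03, limma adjusted p = 0.70). Without WT replicate 1 it was 0.70 (limma adjusted p = 0.39, unadjusted p = 0.0098).

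Dpt encodes dermatopontin, a small matrix protein that binds decorin (chromosome 1, 164796644 to 164824266, plus strand). It stood at 161.9, 92.6 and 89.4 FPKM across WT hearts, and at 122.6, 155.2 and 133.4 FPKM across KO hearts. WT replicate 1 was the highest of all 6, and the other WT libraries were the lowest, before and after scaling. The log2 difference was 0.32 ± 0.20 (SE; 95% interval -0.16 to 0.80, limma adjusted p = 0.76). Without WT replicate 1 it was 0.55 and gave the lowest adjusted p of any of the 10 genes in any of the 16 alternative settings (limma adjusted p = 0.33). It was 0.20 without WT replicate 2 and 0.21 without WT replicate 3.

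Small leucine-rich proteoglycans, the family of Dcn and Lum, gave no call. Of 13 other members 11 were tested, 10 higher and 1 lower in KO, with a median log2 difference of 0.34. Of the 11, 0 were called and 3 were at an unadjusted limma p under 0.05, against 8.48% of all tested genes. Chad, which encodes the cartilage protein chondroadherin, had the smallest p, with 2.99, 4.46 and 2.34 FPKM across WT hearts, and 6.68, 15.3 and 7.26 FPKM across KO hearts. Its genotypes did not overlap (log2 difference 1.40 ± 0.31, limma adjusted p = 0.18), as was found in FPKM for 12.8% of all tested genes. With the replicate number as a block Chad was called (limma adjusted p = 0.038). The labels do not say whether equal numbers pair hearts. Omd, which encodes osteomodulin, was at 5.2 ± 2.3 and 8.9 ± 1.6 FPKM (limma adjusted p = 0.39). Ogn was at 187 ± 54 and 230.4 ± 33.9 FPKM, and Bgn, which encodes biglycan, at 343 ± 79 and 418 ± 189 FPKM (SD, n = 3 each).

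Pi16 encodes a secreted peptidase inhibitor and marks adventitial fibroblasts (chromosome 17, 29317680 to 29330593, plus strand). It was at 54.6, 44.8 and 36.4 FPKM across WT hearts, and at 45.7, 63.8 and 41.6 FPKM across KO hearts, and the groups interleaved. The log2 difference was 0.16 ± 0.17 (SE; 95% interval -0.24 to 0.56, limma adjusted p = 0.86), and it ran from 0.03 without KO replicate 2 to 0.27 without KO replicate 3. Its exons share 222 bases with an antisense gene. Pi16 transcripts match 628 other genes at 90% identity or more in stretches of 100 bases or more, the longest of 173 bases. Whether reads were shared with them was not tested.

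Gsn encodes gelsolin, which severs and caps actin filaments and also has a secreted plasma form (chromosome 2, 35256380 to 35307892, plus strand). It was the steadiest of the 10, at 555.0, 498.0 and 456.9 FPKM across WT hearts, and at 492.7, 553.6 and 499.1 FPKM across KO hearts. Its highest library was 1.21 times its lowest, against 1.55 to 2.09 times for the other 9 genes. After scaling it was 1.08 times. The log2 difference was 0.05 ± 0.14 (SE), with a 95% interval of -0.28 to 0.38 (limma adjusted p = 0.96), and 0.02 without WT replicate 3. Of the 7 other gelsolin family genes 5 were tested and 0 called. Svil, which encodes supervillin, was at 27.4 ± 1.0 and 23.9 ± 2.6 FPKM, and Capg at 10.5 ± 4.0 and 12.1 ± 2.7 FPKM (SD, n = 3 each).

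**Figure D2:**
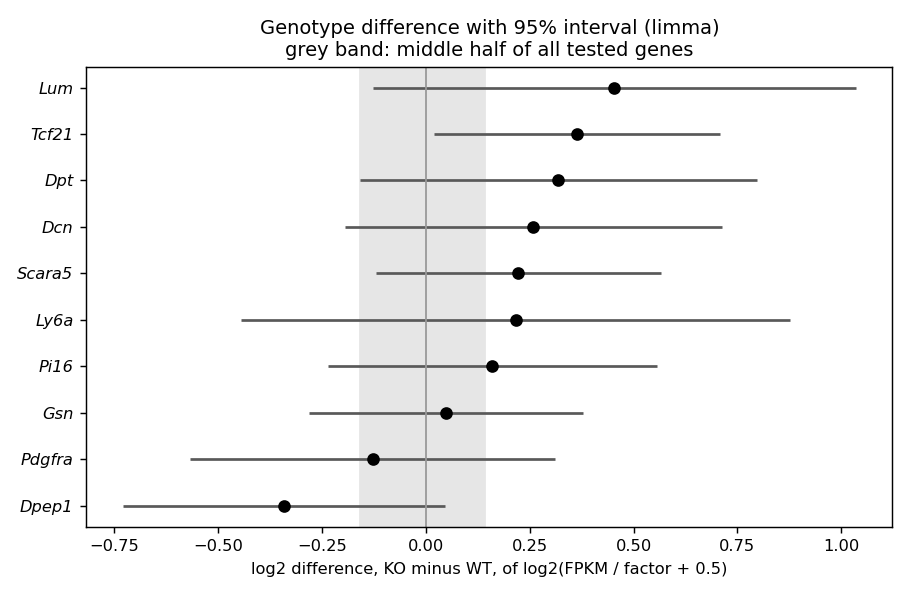
Log2 difference KO minus WT of each gene (point) with its 95% interval from limma (line), on the scale log2(FPKM / factor + 0.5). The grey band covers the middle 50% of all 14656 tested genes (-0.16 to 0.14). Only the interval of Tcf21 (0.02 to 0.71) leaves out 0, before adjustment, and no gene was called.

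Hearts of a genotype differed from each other. After scaling, WT replicate 1 was the highest WT library for 7 of the 10 genes and the lowest for Ly6a, and WT replicate 2 was the lowest for 6. In FPKM as deposited, WT replicate 1 was the highest for 9 genes and WT replicate 3 the lowest for 7, so the order within WT depends on the scaling. Among KO hearts, replicate 2 was the highest for 7 genes and replicate 3 the lowest for 6 on both scales. Over the WT libraries alone, the highest and the lowest were 0.77 apart for Lum, 0.69 for Dpt and 0.57 for Pdgfra on the scaled log2 scale. Those ranges were wider than the differences between the genotypes for these genes (0.45, 0.32 and -0.13). Of the 10 genes, only Tcf21 and Dpep1 had a WT range (0.20 and 0.18) smaller than the size of the difference (0.36 and -0.34). Their KO ranges were 0.45 and 0.60. A range over libraries and a difference of means are unlike measures.

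The other fibroblast lists varied between the same hearts. Median deviations from the 6-library mean, on the log2 scale, were 0.13 in WT replicate 1 and 0.55 in KO replicate 2 for 12 pan-fibroblast matrix genes, and -0.43 in WT replicate 3. For 13 activated fibroblast genes they were 0.30, 0.59 and -0.47 in these libraries, and for 8 matrifibrocyte genes, which mark the settled scar, 0.27, 0.65 and -0.65. Cardiomyocyte markers ran the other way, at -0.21 in WT replicate 1, -0.53 in KO replicate 2 and 0.36 in WT replicate 3. Their 8 genes summed to 7087 FPKM in KO replicate 2, and to between 8802 and 11353 FPKM elsewhere. Macrophage markers were at 0.36 and red blood cell markers at 0.75 in WT replicate 1, the library in which Pdgfra and Dpt were highest. Their part in the values of the resident genes was not tested.

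**Figure D3:**
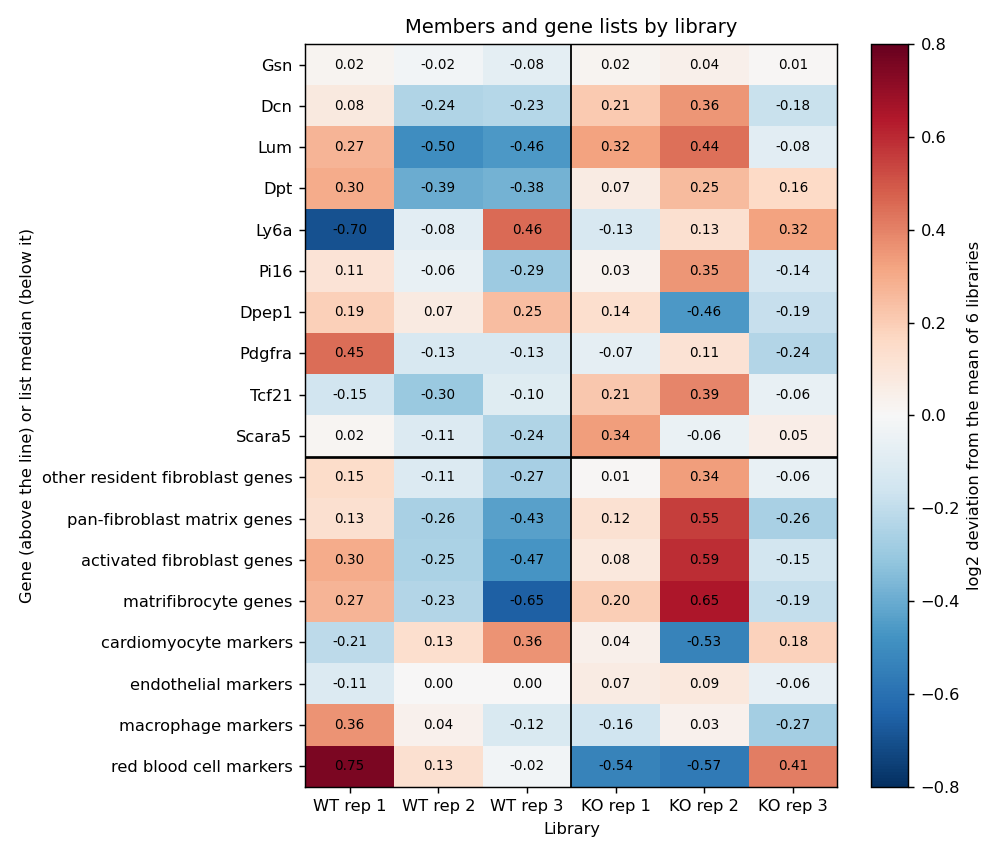
Deviation of each gene (upper rows) and of each list's median (lower rows) from its mean over the 6 libraries, in log2 units, with WT libraries left and KO libraries right of the line. KO replicate 2 is high for Lum (0.44), Tcf21 (0.39) and Dcn (0.36) and for the 3 matrix and scar lists (0.55 to 0.65), and low for cardiomyocyte markers (-0.53). Dpep1 (-0.46) is low in that library, and Ly6a is at -0.70 in WT replicate 1.

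Other fibroblast lists had 0 genes called in either direction. Of 18 further genes of resident or adventitial fibroblasts, 17 were higher and 1 lower in KO (median log2 difference 0.13). Mfap5, a microfibril gene of adventitial fibroblasts, was at 46.5, 29.4 and 21.3 FPKM across WT hearts, and 50.5, 53.5 and 47.4 FPKM across KO hearts. The genotypes did not overlap (log2 difference 0.72 ± 0.22, limma adjusted p = 0.38), as was found in FPKM for 12.8% of all tested genes. Cd248, which encodes endosialin, was at 21.2 ± 4.5 and 30.6 ± 13.9 FPKM. The 1 lower gene, Entpd2, which encodes an ectonucleotidase, was at 12.8 ± 5.3 and 10.1 ± 2.3 FPKM (SD, n = 3 each), and was named after its values were seen.

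All 12 pan-fibroblast matrix genes were higher in KO (median 0.33), and Fbln2, which encodes the matrix protein fibulin-2, had the smallest p. It was at 45.0, 32.7 and 29.2 FPKM across WT hearts, and 49.2, 49.6 and 49.1 FPKM across KO hearts (limma adjusted p = 0.32). Thy1, which encodes the surface protein CD90, was at 11.3 ± 3.5 and 15.9 ± 3.3 FPKM (limma adjusted p = 0.51), and Col1a1 at 189.4 ± 100.9 and 238.5 ± 119.8 FPKM (SD, n = 3 each). Of the 13 activated fibroblast genes 12 were higher (median 0.19). Postn, the periostin gene, was at 162 ± 64 and 223 ± 71 FPKM, Acta2 at 119 ± 18 and 151 ± 23 FPKM and Cthrc1 at 27.9 ± 15.02 and 41.5 ± 8.7 FPKM (SD, n = 3 each; limma adjusted p = 0.71, 0.63 and 0.62). All 8 matrifibrocyte genes were higher (median 0.41). The smallest p values were those of Chad, given above, and of the cartilage factor gene Sox9, which was at 5.27 ± 0.66 and 7.2 ± 2.1 FPKM. By these medians resident, activated and scar genes all leaned towards KO, and a difference between these lists was not tested. The hearts did not all follow the lean. For each fibroblast list the median deviation was above the mean over all libraries in WT replicate 1 and KO replicates 1 and 2. It was below that mean in WT replicates 2 and 3 and in KO replicate 3, where it ran from -0.26 to -0.06.

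**Figure D4:**
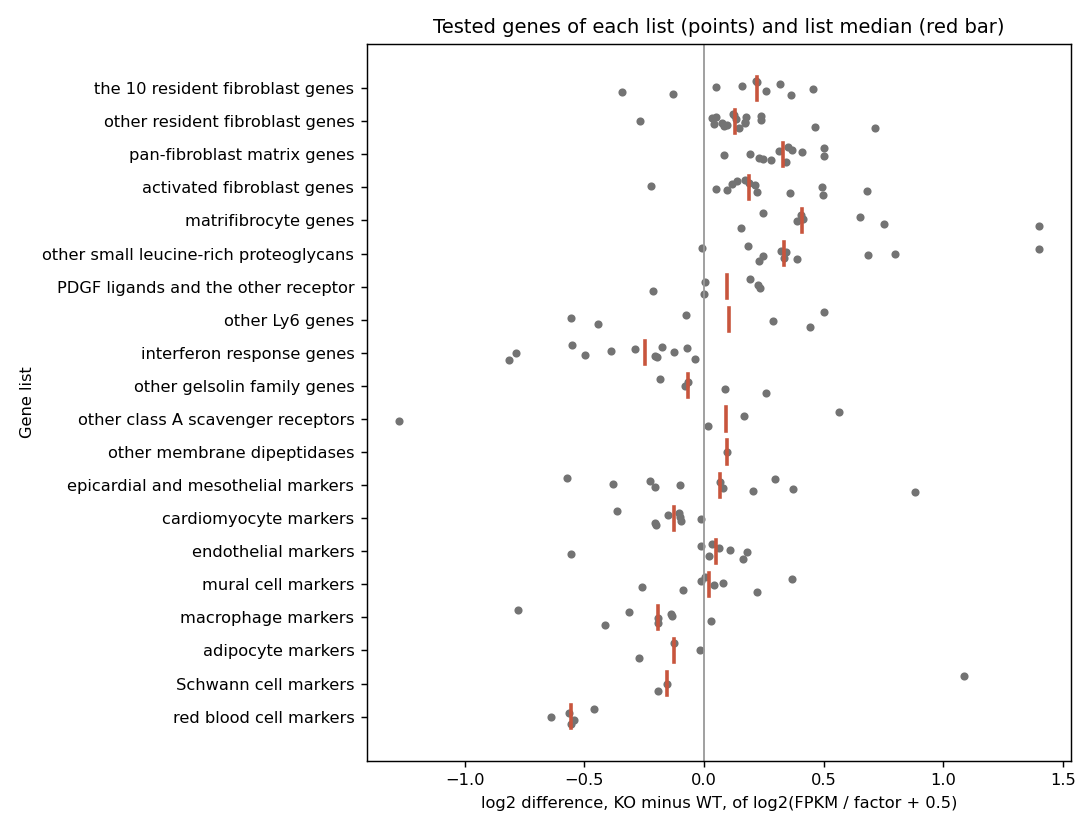
Log2 difference KO minus WT of each tested gene (points) and the median (red bar) in the 10 resident fibroblast genes and in 19 other lists. Medians lie at 0.22 for the 10 genes, 0.13 to 0.41 for the other fibroblast lists, -0.13 for cardiomyocyte markers and -0.19 for macrophage markers. No gene shown was called.

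Markers of other cell types were present, since the samples were whole hearts. All cardiomyocyte, endothelial, mural and macrophage markers passed the filter on low values, and 0 of the 8 in each list were called. All 8 cardiomyocyte markers (median -0.13) and 7 of 8 macrophage markers (median -0.19) were lower in KO, against 8 of the 10 resident fibroblast genes higher. Markers of a list are not independent of each other. The median deviation of the cardiomyocyte markers was 0.04, -0.53 and 0.18 in KO replicates 1 to 3. It was -0.21, 0.13 and 0.36 in WT replicates 1 to 3, so only KO replicate 2 lay below all WT libraries. Of 8 endothelial markers 6 were higher and 2 lower (median 0.05), with Kdr, the VEGF receptor gene, at 40.9 ± 2.3 and 27.4 ± 1.0 FPKM (SD, n = 3 each; limma adjusted p = 0.20). Endothelial cells also express Ly6a, and their 8 markers summed to 352 to 366 FPKM in WT and 324 to 411 FPKM in KO. Of 11 epicardial and mesothelial markers 6 were higher and 5 lower, and Wt1, an epicardial transcription factor gene, was at 1.28 ± 0.37 and 2.79 ± 0.81 FPKM (limma adjusted p = 0.27). Those 11 markers summed to 24.98 to 55.7 FPKM in WT and 28.7 to 52.4 FPKM in KO libraries. Red blood cell markers were lower in KO for all 5 genes without a call (median -0.56), and summed to 6301 to 11040 FPKM in WT and 4403 to 7276 FPKM in KO. The part of these cells in the resident gene values was not tested.

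The genes were also compared with each other inside each heart, where library size and scaling cancel. This comparison was added, and the ratios named below were chosen, after the values were seen. Of the 45 ratios between 2 of the 10 genes, 9 (20.0%) did not overlap between the genotypes, against 14.9% of the ratios over all pairs of 14302 genes detected in every library. That is close to the background, and ratios that share a gene are not independent. All 9 set Pdgfra or Dpep1, the genes with negative estimates, against a gene with a positive estimate. Opposite signs widen the difference of a ratio, so this pattern partly repeats the signs given above. For each of the 9 the exact permutation test gave p = 0.1, the smallest that 3 against 3 allows, and the lowest p adjusted over the 45 was 0.5.

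The ratio of Dpep1 to Tcf21 was 5.05, 5.16 and 5.04 in the WT hearts and 3.71, 2.14 and 3.62 in the KO hearts. WT hearts thus lay within a narrow band and every KO heart below it (5.08 ± 0.07 and 3.16 ± 0.88, SD, n = 3 each; log2 difference -0.73). The ratio of Pdgfra to Tcf21 was 1.92, 1.41 and 1.22 in WT and 1.01, 1.01 and 1.09 in KO. Lum over Pdgfra was 18.6, 16.5 and 16.9 in WT and 27.9, 26.4 and 23.8 in KO, although Pdgfra alone and Lum alone overlapped on either scale. Dcn over Lum, the ratio of the neighbouring proteoglycan genes, was 1.78, 1.82 and 1.80 in KO hearts. In WT it was 1.68, 2.30 and 2.26, on both sides of the KO values.

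**Figure D5:**
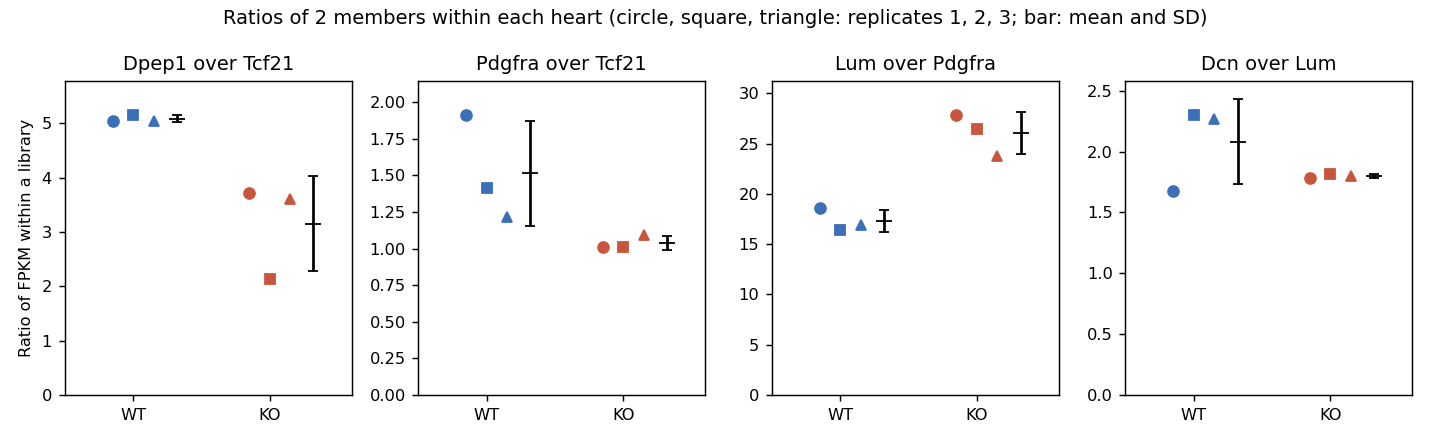
Ratio of FPKM of 2 genes within each library, with WT in blue and KO in red, replicates as circle, square and triangle, and the mean and SD of 3 libraries as a bar. Dpep1 over Tcf21 and Pdgfra over Tcf21 are lower in every KO heart and Lum over Pdgfra is higher in each. Dcn over Lum overlaps, with the KO hearts between 1.78 and 1.82.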

How the data were processed

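Libraries of 6 hearts were prepared using an Illumina TruSeq kit, per the labels. The authors deposited 1 table of FPKM values, although it is titled as counts. Over all rows, with those at 0 counted as whole, 37.2% to 40.4% of a library's values are not whole. Bowtie 0.12.2 and the builds mm8 and mm9 are named without a role, per the submitters' processing notes; for the quantification tool, annotation and strand: not given in the sources used here. Depth was estimated in genes with 1 transcript, by taking the commonest value of FPKM times length as 1 fragment. All 37 mitochondrial genes are listed at 0 in every library.

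Rows were matched to GENCODE M21 (GRCm38) by identifier without version (52403 of 52550 rows). That build is not one of those named, and no coordinate was converted. Samples were grouped by the genotype in their titles; nothing in the labels says whether hearts shared a litter or a day, so p-values cover only the spread of these 6 samples, which may be technical. A count test had been planned in case the table held counts. Instead, genes with FPKM of at least 0.5 in 3 libraries were fitted with limma 3.58.1 in R 4.3.3 on log2(FPKM / factor + 0.5), with genotype as the only term, a mean-variance trend and two-sided Benjamini-Hochberg adjustment over all tested genes. Log2 differences on this scale understate changes of genes with low values. Factors were unweighted trimmed means of log2 ratios (trims 0.3 and 0.05) and lay between 0.949 and 1.07. The script was tested on simulated data. Similar transcripts were sought with blastn (BLAST+ 2.17.0, 90% identity). The 95% intervals are unadjusted.

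The 10 genes and the lists were chosen with earlier results of these data known. Genes were named from the 10 genes, the called or else the 2 of smallest p of each list, and 8 fixed genes (Pdgfrb, Pdgfa, Bgn, Ogn, Ly6c1, Ly6e, Postn, Col1a1).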

Additional observations from a re-analysis of the deposited data

How the results depend on the processing

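None of the 10 genes was called under any of 16 alternatives (other scaling factors, filters, pseudocounts or limma settings, the replicate block, or 1 library left out), where the lowest adjusted p was 0.33. The count of 2 lower genes held in each, and the median log2 difference of the 10 stayed between 0.18 and 0.27. Single estimates reversed in 2 of 160 refits, both without WT replicate 1, where Ly6a was at -0.080 and Pdgfra at 0.062. With 1 library left out Ly6a ran from -0.08 to 0.50 and Pdgfra from -0.22 to 0.06; the cause was not tested. After division by the scaling factors, an alternative chosen after seeing the data, 1 of the 10 genes (Tcf21) had no overlap between the genotypes, against 0 in FPKM as deposited. Over all genes, 20 rather than 55 were called with no filter on low values (25162 genes tested), and 12 to 36 with 1 library left out; 12 stands for the fit without KO replicate 1 and 16 for that without WT replicate 2. With the replicate number as a block (the replicate block), 42 genes were called, and 1 gene of the lists, Chad, against 0 without it. The labels do not say whether equal numbers pair hearts. Same-numbered libraries' deviations correlated at 0.0076, -0.036 and 0.18 across genes, and WT replicate 1 with KO replicate 2 at 0.19. Correlations over so few libraries cannot decide whether hearts were paired. The number of hearts and their spread set the precision: for Lum the interval runs up to 1.03 on the log2 scale.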
